A study of Saccharomyces cerevisiae with 8 samples.

Results

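The genes described here are the 36 genes of sterol synthesis, esterification, transport and regulation in the yeast Saccharomyces cerevisiae, taken from a list of gene symbols and not by a threshold on their levels. All 36 had a probe on the array, among 6226 genes measured and 4060 with a symbol. By role they were 9 genes of the mevalonate steps, 3 genes of the early steps from farnesyl pyrophosphate to lanosterol, 13 genes of the late steps from lanosterol to ergosterol, 3 regulators, 2 esterification enzymes and 6 oxysterol-binding proteins.

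Ergosterol is the main sterol of fungal membranes. It is built from acetyl-CoA through mevalonate and farnesyl pyrophosphate, squalene and lanosterol, in the cytosol, the endoplasmic reticulum and lipid droplets, and several of its late enzymes use oxygen, heme or iron. Surplus sterol is stored as steryl esters, and a fall in membrane sterol activates the transcription factors Upc2 and Ecm22, which bind sterol regulatory elements in ERG promoters.

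Total RNA was taken from the BY4741 strain (Mat a, his3Δ1, leu2Δ0, met15Δ0, ura3Δ0), in which every culture carried the empty plasmid pFL38H with its HIS3 marker. AhPDF1.1b yeast made the plant defensin AhPDF1.1b from pYX212 under the Triose Phosphate Isomerase promoter, whereas WT yeast did not, and the labels name no vector that takes the place of pYX212 there. Cells grew at 30°C as colonies on solid minimal medium, either control medium or medium with 20 mM ZnSO4. There were 2 biological replicates in each of 4 groups, called WT control, WT zinc, AhPDF1.1b control and AhPDF1.1b zinc, and 1 one-colour Agilent array for each sample.

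Values are log2 signals, and differences between groups are log2 differences ± SE from 1 limma fit of all 8 arrays, each group having n = 2. A gene was said to rise or fall where its p, adjusted over all 6226 genes, was under 0.05. Replicate arrays correlated at 0.9963 to 0.9979 over all genes. LEU2 and MET17 (MET15 in the labels), deleted in the strain, read 5.54 to 5.79 on the 8 arrays, whereas the sterol genes read 6.53 to 12.87. URA3, also deleted in the host, read 15.40 to 15.64 in WT yeast and 14.16 to 14.55 in AhPDF1.1b yeast. Its signal was thus high in all groups but lower on every AhPDF1.1b array than on every WT array. The mean of 6 a-cell markers was 9.71 to 9.99 on the control arrays and 7.84 to 8.04 on the zinc arrays, while that of 4 alpha-cell markers was 7.05 to 7.24 and 6.49 to 6.81. Of the a-cell markers STE2 differed most between the yeasts on control medium, with means of 8.87 in WT and 10.53 in AhPDF1.1b yeast. With zinc its means were 7.77 and 8.76 in the same order. Of the alpha-cell markers MF(ALPHA)1 moved most, with group means of 8.39 without and 5.92 with zinc in WT yeast. In AhPDF1.1b yeast its means were 7.64 and 6.30. STE3 went from 6.85 to 6.66 with zinc in WT yeast but from 6.79 to 7.19 in AhPDF1.1b yeast. MF(ALPHA)2 and SAG1 moved less than MF(ALPHA)1 in both yeasts. The part of these shifts in the sterol results was not tested, and in such whole-colony RNA fewer cells of a kind and less RNA per cell cannot be told apart. Only 8 arrays limit the precision of each value.

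Both AhPDF1.1b zinc arrays lay on 1 slide and both WT zinc arrays on the other, while each control group had 1 array on each slide. Slide and AhPDF1.1b under zinc can therefore be separated only through the control arrays. A slide term passed for 0 genes in limma, with 104 genes and 0 sterol genes at an unadjusted p under 0.05.

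In WT yeast, zinc lowered 16 of the 25 genes of sterol synthesis and raised 4. Of all 36 genes, 19 fell and 9 rose, against a background of 31.5% of all genes that fell and 27.8% that rose, and the median log2 difference was -0.27 (-0.03 over all genes). In AhPDF1.1b yeast the same zinc dose gave 13 genes that rose and 5 that fell, where 21.8% and 24.0% of all genes did so, with a median of 0.04 (-0.01 over all genes). On control medium AhPDF1.1b left 35 of the 36 genes without a call and lowered ERG6 alone, and the background was 3.00% higher and 2.65% lower.

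Under zinc, 27 of the 36 genes were higher in AhPDF1.1b yeast than in WT yeast and 2 were lower, against 26.8% and 22.0% of all genes. The median log2 difference was 0.49, and 0.03 over all genes. The difference of zinc effects, taken as AhPDF1.1b yeast minus WT yeast, was called above 0 for 22 genes and below 0 for 2, where 17.7% and 16.0% of all genes were called. Its median was 0.59 (0.03 over all genes). Zinc plus AhPDF1.1b against the WT control gave 12 genes higher and 8 lower, with 24.6% and 27.1% over all genes. These comparisons share arrays. The WT zinc arrays enter zinc in WT yeast, AhPDF1.1b under zinc and the difference of zinc effects, and the AhPDF1.1b zinc arrays enter every comparison that names AhPDF1.1b yeast under zinc.

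**Figure D1:**
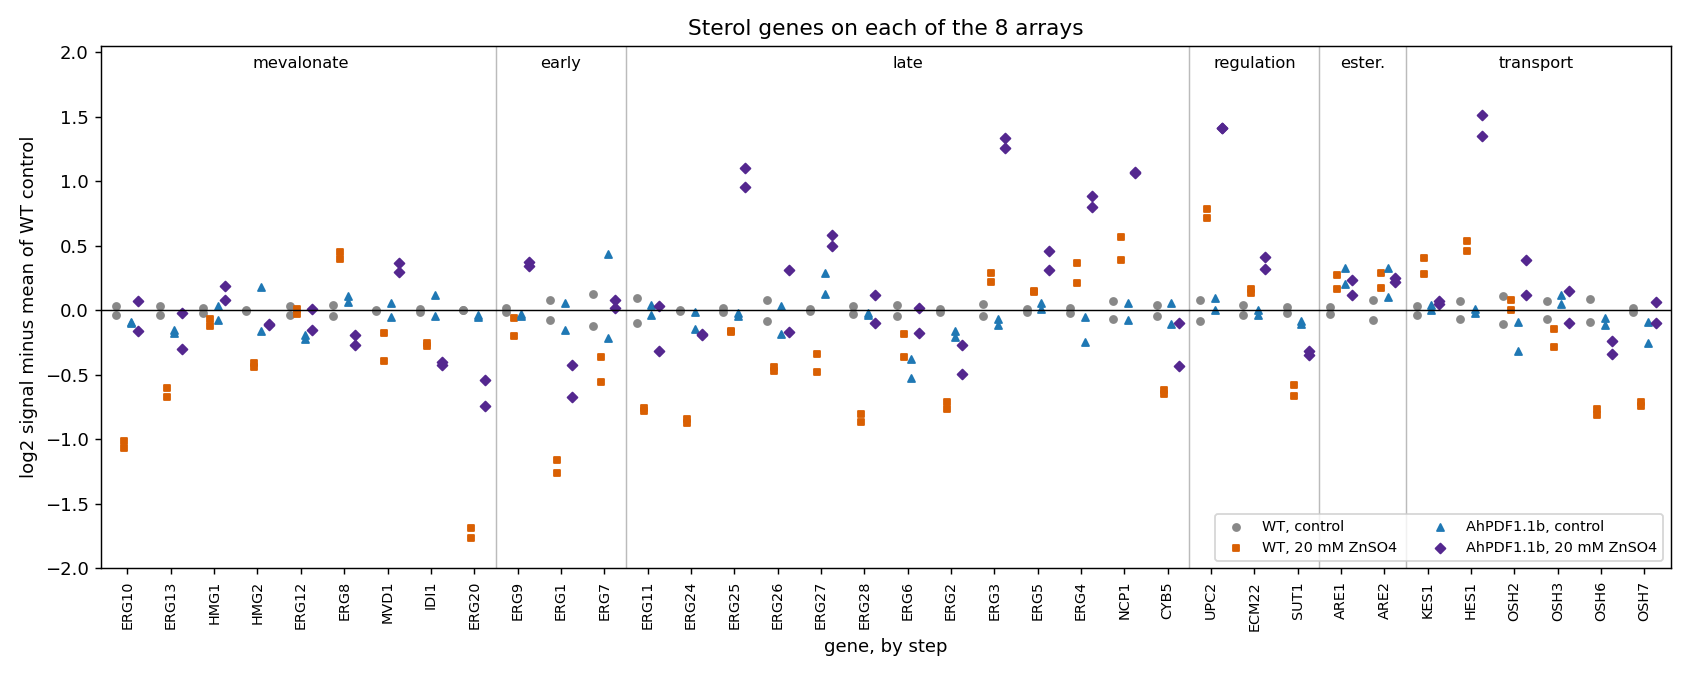
Log2 signal of each of the 36 sterol genes on each of the 8 arrays, as the difference from the mean of the 2 WT control arrays (y axis), with genes ordered by step (x axis). The WT zinc arrays of ERG20 lie lowest, with a group difference of -1.73, and the AhPDF1.1b zinc arrays of HES1, UPC2, ERG3, NCP1 and ERG25 lie highest.

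**Figure D2:**
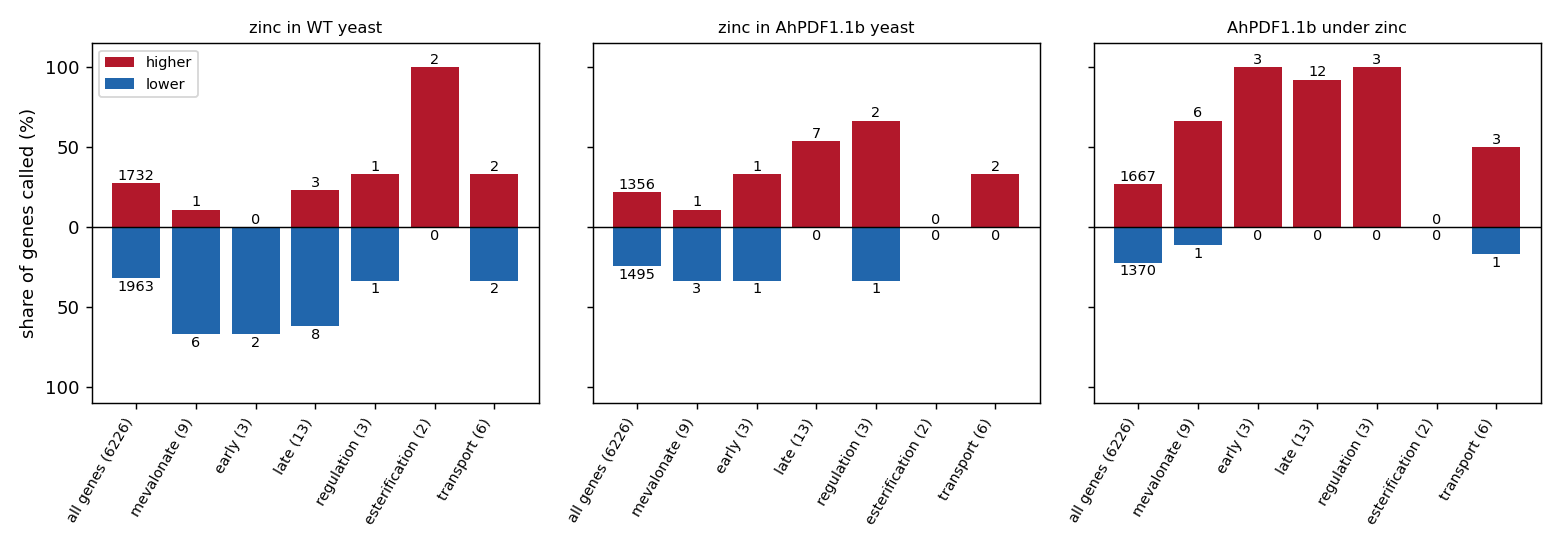
Share of genes called higher (bars above 0) or lower (bars below 0) at an adjusted p under 0.05, in %, for all 6226 genes and for each step, with the number called printed at each bar and the number of genes in parentheses. Of the 13 late genes, 8 fell with zinc in WT yeast, none fell with zinc in AhPDF1.1b yeast and 12 were higher with AhPDF1.1b under zinc. Over all genes these shares were 31.5%, 24.0% and 26.8%.

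Among the 9 genes of the mevalonate steps, zinc lowered 6 and raised 1 in WT yeast, against 31.5% and 27.8% of all genes. In AhPDF1.1b yeast it lowered 3 and raised 1, against 24.0% and 21.8%. With AhPDF1.1b under zinc 6 were higher and 1 was lower, against 26.8% and 22.0%. ERG20, which makes farnesyl pyrophosphate, the branch point to sterols, dolichol, heme A and prenylated proteins, had the largest zinc effect of the 36 genes in WT yeast. Its log2 signal was 11.76 and 11.76 in the WT control, 10.07 and 9.99 in the WT zinc, 11.71 and 11.72 in the AhPDF1.1b control and 11.02 and 11.22 in the AhPDF1.1b zinc arrays. The 2 WT zinc arrays were the lowest of the 8 and the AhPDF1.1b zinc arrays lay between them and the controls. Zinc lowered it 3.31-fold in WT yeast (log2 difference -1.73 ± 0.08, adjusted p = 3.02e-08) and 1.51-fold in AhPDF1.1b yeast (-0.60 ± 0.08, adjusted p = 0.000147), and the difference of zinc effects was 1.13 ± 0.11, adjusted p = 4.18e-05.

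ERG10 encodes the acetoacetyl-CoA thiolase that opens the pathway. It read 10.87 and 10.80 (WT control), 9.77 and 9.82 (WT zinc), 10.75 and 10.74 (AhPDF1.1b control) and 10.67 and 10.91 (AhPDF1.1b zinc). Only the WT zinc arrays stood apart, well below the other 6. The log2 difference was -1.04 ± 0.08, adjusted p = 1.9e-06 for zinc in WT yeast and 0.05 ± 0.08, adjusted p = 0.676 in AhPDF1.1b yeast, and under zinc AhPDF1.1b yeast had 2.00-fold more (1.00 ± 0.08, adjusted p = 6.84e-06). The difference of zinc effects was 1.09 ± 0.12, adjusted p = 7.67e-05.

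ERG13, the HMG-CoA synthase of the next step, also had its lowest values under zinc in WT yeast. Its signals were 8.96 and 8.90 with and 9.60 and 9.53 without zinc in WT yeast, against 9.26 and 9.55 with and 9.39 and 9.42 without zinc in AhPDF1.1b yeast. The WT zinc arrays were lower than all others, with a log2 difference of -0.64 ± 0.09, adjusted p = 0.00013 from the WT control. In AhPDF1.1b yeast the zinc effect was under 0.01 in size, with an interval of -0.20 to 0.20 at 95%, and the difference of zinc effects was 0.64 ± 0.13, adjusted p = 0.00348.

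HMG1 and HMG2 encode the HMG-CoA reductase isoenzymes, the main control point of the pathway. HMG2 read 10.31 and 10.30 (WT control), 9.87 and 9.90 (WT zinc), 10.49 and 10.15 (AhPDF1.1b control) and 10.20 and 10.20 (AhPDF1.1b zinc). It fell with zinc in WT yeast (-0.42 ± 0.10, adjusted p = 0.00306), where its 2 arrays were below all others. In AhPDF1.1b yeast the groups overlapped, with a log2 difference of -0.12 ± 0.10, adjusted p = 0.333. HMG1 read 8.98 and 8.94 (WT control), 8.89 and 8.83 (WT zinc), 8.99 and 8.88 (AhPDF1.1b control) and 9.14 and 9.04 (AhPDF1.1b zinc). Neither zinc effect on HMG1 passed (log2 difference -0.09 ± 0.07, adjusted p = 0.284 in WT yeast and 0.16 ± 0.07, adjusted p = 0.103 in AhPDF1.1b yeast), but under zinc it was higher with AhPDF1.1b (0.23 ± 0.07, adjusted p = 0.0228). For neither isoenzyme did the difference of zinc effects pass (0.25 ± 0.10, adjusted p = 0.0829 for HMG1 and 0.30 ± 0.14, adjusted p = 0.116 for HMG2), and the difference between the 2 isoenzymes was not tested.

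ERG12, ERG8 and MVD1 encode mevalonate kinase, phosphomevalonate kinase and mevalonate pyrophosphate decarboxylase. ERG8 was the only gene of the segment that rose with zinc in WT yeast, with 10.55 and 10.64 (WT control), 11.00 and 11.05 (WT zinc), 10.66 and 10.71 (AhPDF1.1b control) and 10.33 and 10.41 (AhPDF1.1b zinc). The WT zinc arrays were its highest and the AhPDF1.1b zinc arrays its lowest. It rose with zinc in WT yeast (0.42 ± 0.07, adjusted p = 0.000334), fell with zinc in AhPDF1.1b yeast (-0.32 ± 0.07, adjusted p = 0.00347) and was 1.57-fold lower with AhPDF1.1b under zinc (-0.65 ± 0.07, adjusted p = 3.19e-05). The difference of zinc effects was -0.74 ± 0.10, adjusted p = 0.000273.

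MVD1 moved the other way, with signals of 8.12 and 7.91 with and 8.30 and 8.30 without zinc in WT yeast, against 8.60 and 8.66 with and 8.25 and 8.36 without zinc in AhPDF1.1b yeast. It fell in WT yeast (-0.29 ± 0.08, adjusted p = 0.0117) and rose in AhPDF1.1b yeast (0.33 ± 0.08, adjusted p = 0.00771), with a difference of zinc effects of 0.61 ± 0.12, adjusted p = 0.00254. ERG12 was called in none of the comparisons, with log2 differences from -0.21 for AhPDF1.1b on control medium to 0.14 for the difference of zinc effects.

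IDI1, the isomerase that supplies the substrates of Erg20, read 10.82 and 10.79 (WT control), 10.55 and 10.53 (WT zinc), 10.76 and 10.93 (AhPDF1.1b control) and 10.38 and 10.41 (AhPDF1.1b zinc). Both zinc groups lay below both control groups. The log2 difference was -0.27 ± 0.07 in WT yeast (adjusted p = 0.00887) and -0.45 ± 0.07 in AhPDF1.1b yeast (adjusted p = 0.000601), and the difference of zinc effects did not pass (-0.18 ± 0.10, adjusted p = 0.201).

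Some calls of this segment rested on single arrays or on slide. For zinc in WT yeast the call ended for IDI1 without WT control replicate 1 (log2 difference -0.25, adjusted p 0.0548) and for MVD1 without WT control replicate 2 or WT zinc replicate 2 (log2 difference -0.28 to -0.18, adjusted p 0.0527 to 0.118), and for zinc in AhPDF1.1b yeast it ended for MVD1 without AhPDF1.1b control replicate 1 (log2 difference 0.28, adjusted p 0.0552). For AhPDF1.1b under zinc it ended for HMG1 with slide as a block, or without WT zinc replicate 1 or 2 or AhPDF1.1b zinc replicate 1 (log2 difference 0.18 to 0.26, adjusted p 0.0514 to 0.148) and for HMG2 without WT zinc replicate 1 or 2 or AhPDF1.1b zinc replicate 1 or 2 (log2 difference 0.30 to 0.33, adjusted p 0.0660 to 0.0848).

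In the early steps, ERG9 encodes squalene synthase, which commits farnesyl pyrophosphate to sterols, ERG1 the oxygen-using squalene epoxidase and ERG7 lanosterol synthase. In WT yeast 2 of these 3 genes fell with zinc and none rose, against 31.5% and 27.8% of all genes. In AhPDF1.1b yeast 1 rose and 1 fell, against 21.8% and 24.0%. All 3 were higher with AhPDF1.1b under zinc, against 26.8%. ERG1 read 10.14 and 9.99 in the WT control, 8.90 and 8.80 in the WT zinc, 9.91 and 10.12 in the AhPDF1.1b control and 9.39 and 9.64 in the AhPDF1.1b zinc arrays. Its zinc arrays were below its control arrays in both yeasts, and those of WT yeast were the lowest. Zinc lowered it 2.32-fold in WT yeast (-1.21 ± 0.10, adjusted p = 3.11e-06) and 1.41-fold in AhPDF1.1b yeast (-0.49 ± 0.10, adjusted p = 0.00280). The difference of zinc effects was 0.72 ± 0.15, adjusted p = 0.00367.

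ERG9 read 10.39 and 10.36 (WT control), 10.32 and 10.18 (WT zinc), 10.33 and 10.35 (AhPDF1.1b control) and 10.72 and 10.75 (AhPDF1.1b zinc). The AhPDF1.1b zinc arrays were the highest by more than 0.3, and the other 6 lay close together. The log2 difference was -0.13 ± 0.07, adjusted p = 0.140 for zinc in WT yeast, 0.40 ± 0.07, adjusted p = 0.00100 for zinc in AhPDF1.1b yeast and 0.52 ± 0.10, adjusted p = 0.00246 for the difference of zinc effects.

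ERG7 had the largest SE of the 36 genes, with 9.83 and 10.08 (WT control), 9.40 and 9.60 (WT zinc), 9.74 and 10.39 (AhPDF1.1b control) and 10.03 and 9.97 (AhPDF1.1b zinc). The AhPDF1.1b control replicates were 0.65 apart. It fell with zinc in WT yeast (-0.46 ± 0.17, adjusted p = 0.0384) and was higher with AhPDF1.1b under zinc (0.51 ± 0.17, adjusted p = 0.0309), and the difference of zinc effects did not pass (0.39 ± 0.24, adjusted p = 0.236). The first of these calls ended with slide as a block, or without WT control replicate 2 or WT zinc replicate 1 or 2 (log2 difference -0.56 to -0.34, adjusted p 0.0525 to 0.190). The second ended with slide as a block, or without WT zinc replicate 1 or AhPDF1.1b zinc replicate 1 or 2 (log2 difference 0.30 to 0.54, adjusted p 0.0758 to 0.385).

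The 13 genes from lanosterol to ergosterol include their electron carriers. In WT yeast zinc lowered 8 of them and raised 3 (ERG3, ERG4 and NCP1), against 31.5% and 27.8% of all genes. In AhPDF1.1b yeast 7 rose and none fell, against 21.8% and 24.0%, with 2 falling at an unadjusted p under 0.05. With AhPDF1.1b under zinc 12 of 13 were higher, against 26.8% of all genes. The difference of zinc effects was called above 0 for 11 of 13, against 17.7%.

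ERG11 encodes lanosterol demethylase, a heme enzyme and the target of azole drugs, and ERG24 the reductase that follows it. ERG11 read 11.27 and 11.07 (WT control), 10.38 and 10.41 (WT zinc), 11.21 and 11.13 (AhPDF1.1b control) and 10.85 and 11.20 (AhPDF1.1b zinc). The WT zinc arrays were the lowest, and the other 3 groups overlapped. Zinc lowered it in WT yeast (-0.77 ± 0.11, adjusted p = 0.000121), its effect in AhPDF1.1b yeast was -0.14 ± 0.11, adjusted p = 0.318, and the difference of zinc effects was 0.63 ± 0.15, adjusted p = 0.00999. ERG24 read 10.01 and 10.02 (WT control), 9.14 and 9.17 (WT zinc), 9.87 and 10.00 (AhPDF1.1b control) and 9.83 and 9.82 (AhPDF1.1b zinc), again with the WT zinc arrays lowest. The fall in WT yeast was 1.81-fold (-0.86 ± 0.07, adjusted p = 1.88e-06), the effect in AhPDF1.1b yeast was -0.11 ± 0.07, adjusted p = 0.225, and the difference of zinc effects was 0.75 ± 0.10, adjusted p = 0.000245.

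Erg25, Erg26 and Erg27 remove the methyl groups at carbon C-4 as one complex, which Erg28 holds at the membrane of the endoplasmic reticulum. ERG25, the oxygen- and iron-using oxidase of this complex, read 11.78 and 11.75 in the WT control, 11.60 and 11.61 in the WT zinc, 11.72 and 11.75 in the AhPDF1.1b control and 12.72 and 12.87 in the AhPDF1.1b zinc arrays. The AhPDF1.1b zinc arrays were about 1 unit above the other 6. Zinc raised it 2.09-fold in AhPDF1.1b yeast (1.06 ± 0.07, adjusted p = 1.1e-06), with an effect of -0.16 ± 0.07, adjusted p = 0.0668 in WT yeast. Its difference of zinc effects, 1.23 ± 0.10, adjusted p = 1.18e-05, was the largest of the 36 genes.

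ERG27, the keto reductase, read 10.06 and 10.08 (WT control), 9.73 and 9.59 (WT zinc), 10.20 and 10.36 (AhPDF1.1b control) and 10.57 and 10.65 (AhPDF1.1b zinc). It fell with zinc in WT yeast (-0.41 ± 0.08, adjusted p = 0.00107), rose in AhPDF1.1b yeast (0.33 ± 0.08, adjusted p = 0.00595) and was 1.93-fold higher with AhPDF1.1b under zinc. The groups did not overlap in any of these comparisons, and the difference of zinc effects was 0.74 ± 0.11, adjusted p = 0.000659. ERG28 read 9.49 and 9.43 (WT control), 8.65 and 8.59 (WT zinc), 9.42 and 9.44 (AhPDF1.1b control) and 9.36 and 9.58 (AhPDF1.1b zinc). Only its WT zinc arrays stood apart, 1.78-fold below the WT control (-0.83 ± 0.08, adjusted p = 7.78e-06), against 0.04 ± 0.08, adjusted p = 0.736 in AhPDF1.1b yeast, and the difference of zinc effects was 0.87 ± 0.11, adjusted p = 0.000258.

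ERG26, the decarboxylating dehydrogenase, varied more, with 9.95 and 9.79 (WT control), 9.40 and 9.43 (WT zinc), 9.90 and 9.68 (AhPDF1.1b control) and 9.70 and 10.18 (AhPDF1.1b zinc). The AhPDF1.1b zinc replicates were 0.48 apart, the widest gap of any sterol gene in that group. It fell in WT yeast (-0.45 ± 0.14, adjusted p = 0.0150), and its effect in AhPDF1.1b yeast was 0.15 ± 0.14, adjusted p = 0.416. The call of its difference of zinc effects (0.60 ± 0.19, adjusted p = 0.0356) ended with slide as a block, or without WT control replicate 1 or WT zinc replicate 1 or 2 or AhPDF1.1b control replicate 2 or AhPDF1.1b zinc replicate 2 (log2 difference 0.36 to 0.63, adjusted p 0.0755 to 0.123).

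ERG6, ERG2, ERG3, ERG5 and ERG4 encode the enzymes that turn zymosterol into ergosterol by methylation, isomerisation, desaturation and a final reduction. ERG6, the methyltransferase, read 9.15 and 9.24 (WT control), 9.01 and 8.83 (WT zinc), 8.68 and 8.82 (AhPDF1.1b control) and 9.22 and 9.02 (AhPDF1.1b zinc). It was the only sterol gene called on control medium, where both AhPDF1.1b arrays were below both WT arrays (-0.45 ± 0.09, adjusted p = 0.0200). Zinc lowered it in WT yeast (-0.28 ± 0.09, adjusted p = 0.0247) and raised it in AhPDF1.1b yeast (0.37 ± 0.09, adjusted p = 0.00765), and the difference of zinc effects was 0.65 ± 0.13, adjusted p = 0.00365. Under zinc the difference between the yeasts did not pass (0.20 ± 0.09, adjusted p = 0.102).

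ERG2, the isomerase, read 10.68 and 10.65 (WT control), 9.96 and 9.90 (WT zinc), 10.46 and 10.51 (AhPDF1.1b control) and 10.17 and 10.40 (AhPDF1.1b zinc). It fell 1.67-fold with zinc in WT yeast (-0.74 ± 0.08, adjusted p = 2.03e-05), its effect in AhPDF1.1b yeast was -0.20 ± 0.08, adjusted p = 0.0705, and the difference of zinc effects was 0.54 ± 0.12, adjusted p = 0.00474. The AhPDF1.1b zinc arrays were below every control array.

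ERG3, the iron-containing desaturase, read 11.58 and 11.49 in the WT control, 11.82 and 11.76 in the WT zinc, 11.47 and 11.42 in the AhPDF1.1b control and 12.79 and 12.87 in the AhPDF1.1b zinc arrays. It rose with zinc in both yeasts, 2.61-fold in AhPDF1.1b yeast (1.39 ± 0.07, adjusted p = 1.72e-07) and 1.20-fold in WT yeast (0.26 ± 0.07, adjusted p = 0.00842). The groups did not overlap, the AhPDF1.1b zinc arrays were the highest by almost 1 unit, and the difference of zinc effects was 1.13 ± 0.10, adjusted p = 1.89e-05.

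ERG4 encodes the last reductase of the pathway and NCP1 the reductase that passes electrons to the P450 enzymes. ERG4 read 10.51 and 10.55 (WT control), 10.74 and 10.90 (WT zinc), 10.28 and 10.47 (AhPDF1.1b control) and 11.42 and 11.33 (AhPDF1.1b zinc), and rose in both yeasts (0.29 ± 0.09, adjusted p = 0.0130 in WT yeast and 1.00 ± 0.09, adjusted p = 7e-06 in AhPDF1.1b yeast). NCP1 read 10.70 and 10.83 (WT control), 11.16 and 11.33 (WT zinc), 10.69 and 10.82 (AhPDF1.1b control) and 11.83 and 11.83 (AhPDF1.1b zinc), and also rose in both (0.48 ± 0.08, adjusted p = 0.000571 and 1.08 ± 0.08, adjusted p = 3.66e-06 in the same order). In both genes the AhPDF1.1b zinc arrays were the highest and the WT zinc arrays came next. The difference of zinc effects was 0.71 ± 0.12, adjusted p = 0.00144 for ERG4 and 0.60 ± 0.12, adjusted p = 0.00327 for NCP1.

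ERG5, the P450 desaturase, rose with zinc in AhPDF1.1b yeast (0.36 ± 0.07, adjusted p = 0.00209), and its effect in WT yeast was 0.14 ± 0.07, adjusted p = 0.103. CYB5, a cytochrome b carrier that serves several late enzymes, fell in WT yeast (-0.63 ± 0.10, adjusted p = 0.000337), and its effect in AhPDF1.1b yeast was -0.24 ± 0.10, adjusted p = 0.0845. For neither gene did the zinc effects differ beyond the threshold (0.21 ± 0.10, adjusted p = 0.129 for ERG5 and 0.40 ± 0.15, adjusted p = 0.0594 for CYB5).

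Some calls of the late genes did not hold when 1 array was left out or slide was fitted as a block. For zinc in WT yeast the call ended for ERG26 without WT control replicate 1 or WT zinc replicate 1 (log2 difference -0.44 to -0.37, adjusted p 0.0651 to 0.0882), for ERG3 without WT control replicate 2 or WT zinc replicate 1 (log2 difference 0.21 to 0.22, adjusted p 0.0599 to 0.0823), for ERG4 without WT control replicate 1 or WT zinc replicate 2 (log2 difference 0.21 to 0.27, adjusted p 0.0701 to 0.111) and for ERG6 with slide as a block, or without WT control replicate 2 or WT zinc replicate 2 (log2 difference -0.26 to -0.19, adjusted p 0.0730 to 0.181). For zinc in AhPDF1.1b yeast that of ERG6 ended without AhPDF1.1b control replicate 1 or AhPDF1.1b zinc replicate 1 (log2 difference 0.27 to 0.30, adjusted p 0.0632 to 0.0731), and on control medium it ended without WT control replicate 1 or 2 or AhPDF1.1b control replicate 1 (log2 difference -0.49 to -0.38, adjusted p 0.0818 to 0.120). For AhPDF1.1b under zinc the calls ended for ERG2 with slide as a block (log2 difference 0.32, adjusted p 0.0778), for ERG26 with slide as a block, or without AhPDF1.1b zinc replicate 2 (log2 difference 0.28 to 0.55, adjusted p 0.0700 to 0.0713), for ERG5 with slide as a block, or without WT zinc replicate 1 or 2 or AhPDF1.1b zinc replicate 1 (log2 difference 0.17 to 0.25, adjusted p 0.0566 to 0.177) and for CYB5 with slide as a block, or without WT zinc replicate 1 or AhPDF1.1b zinc replicate 2 (log2 difference 0.20 to 0.41, adjusted p 0.0632 to 0.121). For the difference of zinc effects, the call of ERG11 ended with slide as a block (log2 difference 0.57, adjusted p 0.0747).

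Enzymes were also grouped by cofactor. Of the 5 oxygen-using enzymes (ERG1, ERG11, ERG25, ERG3 and ERG5), zinc lowered 2 and raised 1 in WT yeast, against 31.5% and 27.8% of all genes. In AhPDF1.1b yeast it lowered 1 and raised 3, against 24.0% and 21.8%. All 5 were higher with AhPDF1.1b under zinc, as were all 5 genes of heme or iron proteins (ERG11, ERG5, ERG25, ERG3 and CYB5), against 26.8% of all genes. So were 21 of all 25 synthesis genes and 12 of the 13 late genes. Zinc effects differed between the yeasts, above 0, for 4 of the 5 oxygen-using enzymes and 3 of the 5 heme or iron proteins. They did so for 17 of the 25 synthesis genes and 17.7% of all genes. The 2 cofactor groups share 4 genes.

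Among the regulators, UPC2 and ECM22 encode the related activators that bind sterol regulatory elements, and SUT1 a factor named for sterol uptake. UPC2 read 7.14 and 7.31 in the WT control, 7.94 and 8.01 in the WT zinc, 7.32 and 7.23 in the AhPDF1.1b control and 8.64 and 8.64 in the AhPDF1.1b zinc arrays. The zinc arrays of both yeasts were above all control arrays, and those of AhPDF1.1b yeast were the highest. Zinc raised it 1.68-fold in WT yeast (0.75 ± 0.08, adjusted p = 1.13e-05) and 2.58-fold in AhPDF1.1b yeast (1.37 ± 0.08, adjusted p = 2.96e-07), and the difference of zinc effects was 0.62 ± 0.11, adjusted p = 0.00161.

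ECM22 read 8.79 and 8.87 (WT control), 8.99 and 8.96 (WT zinc), 8.79 and 8.83 (AhPDF1.1b control) and 9.24 and 9.15 (AhPDF1.1b zinc). As in UPC2, the zinc arrays were above all control arrays and those of AhPDF1.1b yeast were the highest. It rose in AhPDF1.1b yeast (0.39 ± 0.07, adjusted p = 0.00103), its effect in WT yeast was 0.15 ± 0.07, adjusted p = 0.0824, and the difference of zinc effects did not pass (0.24 ± 0.10, adjusted p = 0.0839). The difference between UPC2 and ECM22 was not tested.

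SUT1 read 10.66 and 10.62 (WT control), 10.06 and 9.98 (WT zinc), 10.56 and 10.54 (AhPDF1.1b control) and 10.33 and 10.29 (AhPDF1.1b zinc). Both zinc groups were below both control groups, and WT zinc was the lowest. It fell in WT yeast (-0.62 ± 0.07, adjusted p = 1.66e-05) and in AhPDF1.1b yeast (-0.24 ± 0.07, adjusted p = 0.0138), with a difference of zinc effects of 0.38 ± 0.09, adjusted p = 0.00983. Its fall in AhPDF1.1b yeast ended without AhPDF1.1b zinc replicate 2 (log2 difference -0.22, adjusted p 0.0692) and the difference of zinc effects ended with slide as a block (log2 difference 0.37, adjusted p 0.0672). For AhPDF1.1b under zinc the call of SUT1 ended with slide as a block (log2 difference 0.28, adjusted p 0.0698) and that of ECM22 ended with slide as a block, or without WT zinc replicate 1 or 2 or AhPDF1.1b zinc replicate 1 (log2 difference 0.17 to 0.24, adjusted p 0.0613 to 0.142).

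ARE1 and ARE2 encode the acyltransferases that make steryl esters. ARE1 read 9.31 and 9.36 (WT control), 9.61 and 9.50 (WT zinc), 9.54 and 9.66 (AhPDF1.1b control) and 9.45 and 9.57 (AhPDF1.1b zinc), and ARE2 read 7.42 and 7.57 (WT control), 7.67 and 7.79 (WT zinc), 7.60 and 7.83 (AhPDF1.1b control) and 7.72 and 7.75 (AhPDF1.1b zinc). In both genes the WT control arrays were the lowest. Zinc raised both in WT yeast (0.22 ± 0.08, adjusted p = 0.0318 for ARE1 and 0.23 ± 0.09, adjusted p = 0.0472 for ARE2). No change passed in AhPDF1.1b yeast (-0.09 ± 0.08, adjusted p = 0.393 and 0.02 ± 0.09, adjusted p = 0.866 in the same order), nor with AhPDF1.1b under zinc (-0.04 ± 0.08, adjusted p = 0.700 and 0.01 ± 0.09, adjusted p = 0.959), where the unadjusted p was under 0.05 for 0 of the 2 genes. The 95% intervals of the latter were -0.21 to 0.13 and -0.19 to 0.21.

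On control medium ARE1 and ARE2 were the genes with the largest estimates above 0 for AhPDF1.1b (0.26 ± 0.08, adjusted p = 0.0775 and 0.22 ± 0.09, adjusted p = 0.210), and neither passed. Nor did the difference of zinc effects pass (-0.31 ± 0.11, adjusted p = 0.0540 and -0.21 ± 0.13, adjusted p = 0.238). The zinc call in WT yeast ended for ARE1 with slide as a block, or without WT control replicate 1 or 2 or WT zinc replicate 1 (log2 difference 0.16 to 0.25, adjusted p 0.0566 to 0.186) and for ARE2 with slide as a block, with median centring, or without WT control replicate 1 or WT zinc replicate 1 or 2 or AhPDF1.1b zinc replicate 1 or 2 (log2 difference 0.15 to 0.29, adjusted p 0.0516 to 0.282).

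The 6 oxysterol-binding proteins carry sterols or phospholipids between membranes. With zinc 2 rose and 2 fell in WT yeast (33.3% each), near the 27.8% and 31.5% of all genes. In AhPDF1.1b yeast 2 rose and none fell (1 fell at an unadjusted p under 0.05), against 21.8% and 24.0% of all genes. With AhPDF1.1b under zinc 3 were higher and 1 was lower, against 26.8% and 22.0%. HES1 read 6.56 and 6.70 in the WT control, 7.17 and 7.09 in the WT zinc, 6.61 and 6.64 in the AhPDF1.1b control and 7.98 and 8.14 in the AhPDF1.1b zinc arrays. Its 4 control arrays lay within 0.15 of each other, the WT zinc arrays were higher and the AhPDF1.1b zinc arrays were highest. Zinc raised it 1.41-fold in WT yeast (0.50 ± 0.08, adjusted p = 0.000301) and 2.71-fold in AhPDF1.1b yeast (1.44 ± 0.08, adjusted p = 2.96e-07), the largest rise of the 36 genes, and the difference of zinc effects was 0.94 ± 0.11, adjusted p = 0.000156.

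KES1, the close relative of HES1, whose protein exchanges sterol for a phosphoinositide at the Golgi, read 9.17 and 9.11 (WT control), 9.55 and 9.42 (WT zinc), 9.14 and 9.18 (AhPDF1.1b control) and 9.19 and 9.21 (AhPDF1.1b zinc). The WT zinc arrays were the only ones to stand apart. It rose in WT yeast (0.35 ± 0.07, adjusted p = 0.00146), its effect in AhPDF1.1b yeast was 0.04 ± 0.07, adjusted p = 0.693, and it was lower with AhPDF1.1b under zinc (-0.29 ± 0.07, adjusted p = 0.00630). Its difference of zinc effects was below 0 (-0.31 ± 0.10, adjusted p = 0.0353). KES1 and ERG8 were the 2 genes of the 36 called in this direction. The call of KES1 for AhPDF1.1b under zinc ended without WT zinc replicate 1 (log2 difference -0.22, adjusted p 0.0594), and its difference of zinc effects ended with slide as a block, with a replicate block, or without WT control replicate 1 or 2 or WT zinc replicate 1 or AhPDF1.1b control replicate 1 or 2 or AhPDF1.1b zinc replicate 1 or 2 (log2 difference -0.36 to -0.24, adjusted p 0.0504 to 0.125).

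OSH6 and OSH7 encode related proteins that deliver phosphatidylserine to the plasma membrane. OSH6 read 8.33 and 8.15 (WT control), 7.43 and 7.48 (WT zinc), 8.18 and 8.12 (AhPDF1.1b control) and 7.90 and 8.01 (AhPDF1.1b zinc), and OSH7 read 8.85 and 8.88 (WT control), 8.12 and 8.15 (WT zinc), 8.61 and 8.77 (AhPDF1.1b control) and 8.93 and 8.76 (AhPDF1.1b zinc). In both genes the WT zinc arrays were the lowest of all. Zinc lowered OSH6 1.73-fold and OSH7 1.65-fold in WT yeast (-0.79 ± 0.08, adjusted p = 1.01e-05 and -0.72 ± 0.08, adjusted p = 2.09e-05). In AhPDF1.1b yeast the effects were -0.20 ± 0.08, adjusted p = 0.0576 and 0.15 ± 0.08, adjusted p = 0.143, and the differences of zinc effects were 0.59 ± 0.11, adjusted p = 0.00252 and 0.88 ± 0.11, adjusted p = 0.000242.

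OSH2 and OSH3 encode larger members of the family. OSH2 read 8.61 and 8.82 (WT control), 8.71 and 8.79 (WT zinc), 8.40 and 8.62 (AhPDF1.1b control) and 9.11 and 8.84 (AhPDF1.1b zinc) and rose with zinc in AhPDF1.1b yeast (0.46 ± 0.11, adjusted p = 0.00624), a call that ended without AhPDF1.1b control replicate 1 or AhPDF1.1b zinc replicate 1 (log2 difference 0.33 to 0.35, adjusted p 0.0617 to 0.0627). The difference of zinc effects of OSH2 did not pass (0.42 ± 0.16, adjusted p = 0.0609). OSH3 read 8.99 and 9.13 (WT control), 8.78 and 8.92 (WT zinc), 9.11 and 9.18 (AhPDF1.1b control) and 9.21 and 8.97 (AhPDF1.1b zinc). Its WT zinc arrays were the lowest, the other groups overlapped, and it was called in none of the comparisons. The log2 difference was -0.21 ± 0.09, adjusted p = 0.0721 for zinc in WT yeast and 0.24 ± 0.09, adjusted p = 0.0581 for AhPDF1.1b under zinc. The probe sequences were not used here, so signal shared between close relatives such as KES1 and HES1, OSH6 and OSH7 or HMG1 and HMG2 cannot be told apart from their own.

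**Figure D3:**
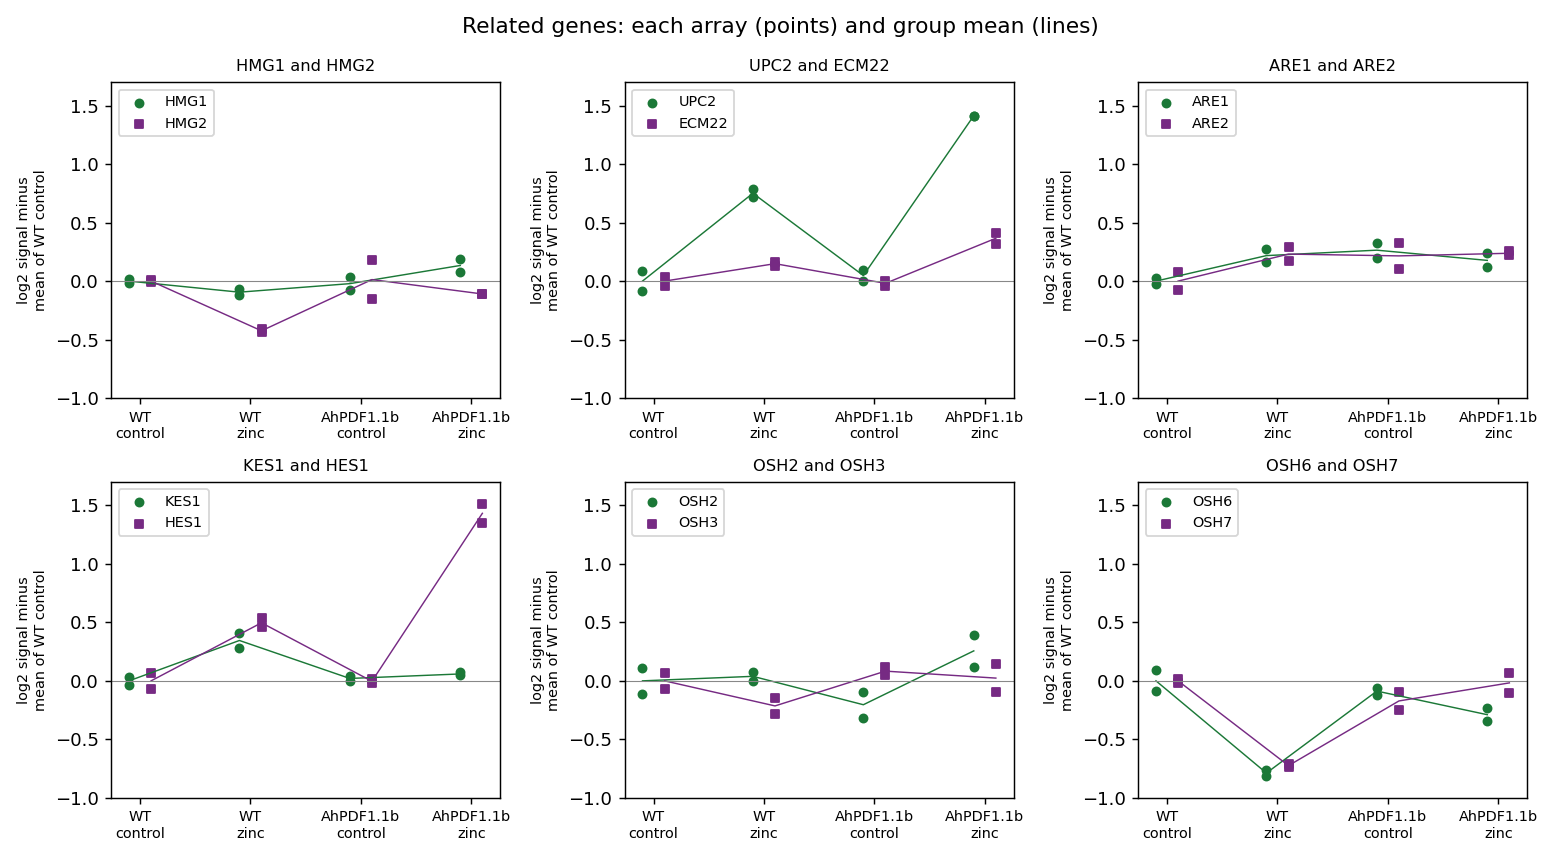
Related sterol genes on each array (points) with the group means joined by lines, as log2 signal minus the gene's own mean in the 2 WT control arrays (y axis), for the 4 groups (x axis). HES1 and UPC2 are highest in AhPDF1.1b yeast under zinc, by 1.43 and 1.41 above the WT control, whereas KES1 and ECM22 are 0.06 and 0.37 above it, and OSH6 and OSH7 are both lowest in WT yeast under zinc.

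The zinc effects in the 2 yeasts rest on different arrays and were set side by side for each gene. Zinc raised 5 genes in both yeasts (ERG3, ERG4, NCP1, UPC2 and HES1), where 14.5% of all genes did so, and lowered 4 in both (IDI1, ERG20, ERG1 and SUT1), where 16.5% did. The 3 genes MVD1, ERG27 and ERG6 fell in WT yeast and rose in AhPDF1.1b yeast, a pattern of 1.17% of all genes, and ERG8 did the opposite, as did 2.26%. A further 12 fell in WT yeast and were not called in AhPDF1.1b yeast (13.8% of all genes), namely ERG10, ERG13, HMG2, ERG7, ERG11, ERG24, ERG26, ERG28, ERG2, CYB5, OSH6 and OSH7. The test of that difference itself passed for these 12 except HMG2, ERG7 and CYB5. ARE1, ARE2 and KES1 rose in WT yeast without a call in AhPDF1.1b yeast (11% of all genes), and ERG9, ERG25, ERG5, ECM22 and OSH2 rose in AhPDF1.1b yeast without a call in WT yeast (6.09%). Of these, the test of the difference itself passed for KES1, ERG9 and ERG25, and not for ARE1, ARE2, ERG5, ECM22 or OSH2. HMG1, ERG12 and OSH3 were called in neither (29.3%).

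**Figure D4:**
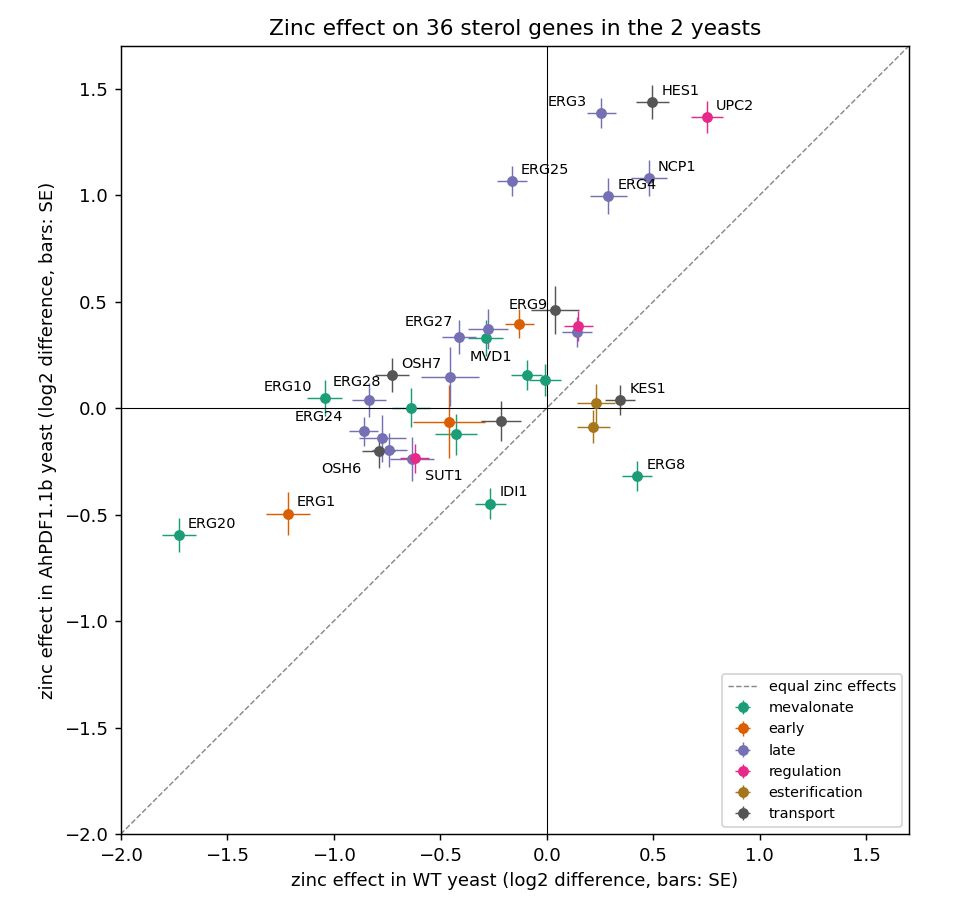
Zinc effect on each of the 36 sterol genes in WT yeast (x axis) and in AhPDF1.1b yeast (y axis), both as log2 differences with SE bars, coloured by step, with a dashed line where the effects are equal. The estimate of the difference of zinc effects was above 0 for 31 of the 36 genes, which lie above the line, where 55.0% of all genes had an estimate above 0, and ERG8 lies farthest below it at -0.74.

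Against the WT control, AhPDF1.1b yeast under zinc had higher levels of 12 genes and lower levels of 8. Those higher were UPC2 (1.41 ± 0.08), HES1 (1.43 ± 0.08), ERG3 (1.30 ± 0.07), NCP1 (1.07 ± 0.08), ERG25 (1.03 ± 0.07), ERG4 (0.85 ± 0.09), ERG27, ERG5, ECM22, ERG9, MVD1 and ARE2, with adjusted p from 1.82e-07 for UPC2 to 0.0473 for ARE2. Those lower were ERG20 (-0.64 ± 0.08), ERG1 (-0.55 ± 0.10), IDI1 (-0.41 ± 0.07), ERG2 (-0.38 ± 0.08), SUT1, OSH6, ERG8 and ERG24, the last at an adjusted p of 0.0408. By step, 6 of the 13 late genes were higher and 2 lower, while 1 of the 9 mevalonate genes was higher and 3 lower. Over all genes 24.6% were higher and 27.1% lower. ERG10, ERG13, ERG11 and ERG28, which fell in WT yeast with zinc, gave -0.04 ± 0.08, -0.16 ± 0.09, -0.14 ± 0.11 and 0.01 ± 0.08 here and did not pass.

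Calls of this comparison ended for ARE2 with slide as a block, or without WT control replicate 1 or WT zinc replicate 1 or 2 or AhPDF1.1b zinc replicate 1 or 2 (log2 difference 0.16 to 0.25, adjusted p 0.0549 to 0.284), for ERG24 with slide as a block, with a replicate block, with an intensity trend, or without WT control replicate 1 or 2 or WT zinc replicate 1 or 2 or AhPDF1.1b zinc replicate 1 or 2 (log2 difference -0.22 to -0.18, adjusted p 0.0513 to 0.145), for ERG8 with slide as a block, or without WT control replicate 2 or AhPDF1.1b zinc replicate 1 (log2 difference -0.22 to -0.18, adjusted p 0.0592 to 0.134) and for OSH6 without WT control replicate 1 or AhPDF1.1b zinc replicate 1 (log2 difference -0.24 to -0.20, adjusted p 0.0786 to 0.118).

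On control medium few of the 36 genes differed between the 2 yeasts, and the same held over all genes. The median log2 difference was -0.03, and under 0.01 in size over all genes. The estimates ran from -0.45 for ERG6 to 0.26 for ARE1. For the 36 genes limma called 0 higher and 1 lower, where 3.00% and 2.65% of all genes were called. At an unadjusted p under 0.05, 3 were higher and 3 lower. ERG20, ERG10, ERG25, ERG3, UPC2 and HES1, among those with the largest zinc effects or differences of zinc effects, were within 0.10 of the WT control. ERG4 and OSH7, also with large values of this kind, gave -0.15 ± 0.09 (adjusted p = 0.369) and -0.17 ± 0.08 (adjusted p = 0.261).

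Within slides, a zinc effect was the mean of the 2 zinc arrays minus the 1 control array of that yeast on the same slide. Each effect thus rests on a single control array. The median was 0.05 in AhPDF1.1b yeast on slide 1 (21 of 36 genes above 0, against 48.1% of all genes). It was -0.29 in WT yeast on slide 2 (11 of 36 above 0, against 47.5%). The difference of the 2 within-slide effects was above 0 for 31 of 36 genes, 23 of the 25 synthesis genes and 13 of the 13 late genes, with a median of 0.53, against 54.7% of all genes and a median of 0.04. It was 1.20 for ERG25, 1.12 for ERG20, 1.06 for ERG10, 0.99 for HES1, 0.74 for UPC2 and -0.72 for ERG8. With slide as a block 19 genes were higher and 2 lower with AhPDF1.1b under zinc, where 14.3% and 13.9% of all genes were called. The difference of zinc effects was then called above 0 for 19 and below 0 for 1, against 9.64% and 10.6% of all genes. Its median was again 0.53, because the slide block gives the same estimate as the within-slide difference, so it is not a separate check.

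Among the AhPDF1.1b zinc arrays replicate 2 was above replicate 1 in 9 of the 36 genes by more than 0.2, against 5.8% of all genes in that group. These included ERG26 (0.48), ERG11 (0.35), CYB5 (0.33), ERG13 (0.29), ERG1 (0.25) and ERG10 (0.24), and not ERG3 (0.08), UPC2 (under 0.01) or NCP1 (-0.01). Without AhPDF1.1b zinc replicate 2, 26 genes were higher and 2 lower with AhPDF1.1b under zinc, against 21.6% and 18.7% of all genes. Without replicate 1 there were 22 and 2, against 20.9% and 18.4%.

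Genes outside the 36 were counted from lists of 47, of which 34 had a named probe. These were 16 genes of sterol uptake, ester hydrolysis, trafficking and regulation, 9 of isoprenoid branches and 9 targets of Rox1, Hap1 or Upc2 outside the pathway. Of the 16 sterol genes, zinc lowered 10 and raised 2 in WT yeast, where 31.5% and 27.8% of all genes were called, and lowered 3 and raised 5 in AhPDF1.1b yeast, against 24.0% and 21.8%. With AhPDF1.1b under zinc 12 of the 16 were higher and 1 lower, against 26.8% and 22.0% of all genes. On control medium the hypoxic repressor gene ROX1 was higher (0.41 ± 0.07, adjusted p = 0.00672) and MCR1, a mitochondrial cytochrome b5 reductase gene, was lower (-0.26 ± 0.07, adjusted p = 0.0447), where 3.00% and 2.65% of all genes were called. The call of ROX1 ended without WT control replicate 1 or 2 (log2 difference 0.39 to 0.43, adjusted p 0.0517 to 0.0602), and that of MCR1 ended in 13 alternatives, the omission of each of the 8 arrays among them. Both sterol importers, AUS1 and PDR11, fell in WT yeast with zinc (-0.60 ± 0.07, adjusted p = 2.65e-05 for AUS1 and -0.22 ± 0.09, adjusted p = 0.0425 for PDR11) and were higher with AhPDF1.1b under zinc (0.71 ± 0.07, adjusted p = 1.79e-05 and 0.45 ± 0.09, adjusted p = 0.00148 in the same order). The fall of PDR11 no longer passed with a replicate block, with only the arrays compared fitted, or without WT control replicate 1 or 2 or WT zinc replicate 1 or AhPDF1.1b zinc replicate 1 or 2 (log2 difference -0.25 to -0.11, adjusted p 0.0506 to 0.337). Among 6 genes of sterol transfer and trafficking 4 fell in WT yeast, led by PRY2, which encodes a secreted sterol-binding protein (-1.50 ± 0.09, adjusted p = 3.28e-07).

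TGL1, a steryl ester hydrolase, and ATF2, an acetyltransferase that acts on sterols, both fell in WT yeast (-0.45 ± 0.07, adjusted p = 0.000255 for TGL1 and -0.25 ± 0.09, adjusted p = 0.0381 for ATF2), and the difference of zinc effects of ATF2 was 0.75 ± 0.13, adjusted p = 0.00162. The call of ATF2 in WT yeast ended without WT control replicate 1 or 2 or WT zinc replicate 1 (log2 difference -0.27 to -0.16, adjusted p 0.0917 to 0.256). Of 6 regulators and cofactor genes, SUT2, a relative of SUT1, fell in WT yeast (-1.17 ± 0.08, adjusted p = 8.31e-07), and MGA2, an activator of OLE1, had a difference of zinc effects of 0.80 ± 0.10, adjusted p = 0.00017. Of the 9 targets of Rox1, Hap1 or Upc2 outside the pathway 4 rose and 4 fell in WT yeast, against 27.8% and 31.5% of all genes. With AhPDF1.1b under zinc 5 of these 9 were higher and 4 lower, against 26.8% and 22.0%. Of these calls, those of AAC3, ANB1 and CYC7 ended with slide as a block and in other alternatives. The log2 differences were then -0.25 to -0.16 for AAC3, 0.17 to 0.24 for ANB1 and -0.35 to -0.22 for CYC7. AAC3 was dim, at 6.06 to 6.42 on the arrays. On control medium CYB2, a lactate dehydrogenase gene, was lower (-1.01 ± 0.09, adjusted p = 0.00021), and the cytochrome c gene CYC1 was higher (0.31 ± 0.06, adjusted p = 0.0198), a call that ended with only the arrays compared fitted, or without WT control replicate 1 or 2 or AhPDF1.1b control replicate 2 (log2 difference 0.28 to 0.32, adjusted p 0.0501 to 0.127). OLE1, the fatty acid desaturase and 1 of these 9 genes, read 13.09 and 13.01 (WT control), 13.36 and 13.30 (WT zinc), 12.96 and 12.97 (AhPDF1.1b control) and 14.53 and 14.74 (AhPDF1.1b zinc). It was highest on the AhPDF1.1b zinc arrays, with a difference of zinc effects of 1.39 ± 0.11, adjusted p = 1.18e-05. Of the 9 genes of the isoprenoid branches, which use prenyl pyrophosphates made by the mevalonate pathway, 3 fell and 2 rose in WT yeast (33.3% and 22.2%), near the 31.5% and 27.8% of all genes. SRT1, a dolichol-pathway prenyltransferase, rose 2.17-fold in WT yeast (1.12 ± 0.07, adjusted p = 3.13e-07).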

How the data were processed

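Total RNA of 8 yeast samples was measured on one-colour Agilent arrays. The authors deposited 1 log2 signal for each probe and array, without pooling. Their processing notes give R 2.14.2 and limma as tools. How background was corrected and arrays were normalized is not given in these sources. The quartiles and medians of the arrays were nearly equal, so no further scaling was applied. Of 6227 probes, 4061 had 1 symbol, none several and 2166 none, and 125 symbols were updated through the RefSeq R64 gene table, used for names only. The 2 probes of FDH2 were averaged, which left 6226 genes. No coordinates or sequences were used.

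The 8 arrays were fitted with 4 group means in limma 3.58.1 (R 4.3.3; 4 residual and 6.36 prior degrees of freedom), for 6 comparisons, with Benjamini-Hochberg adjustment over all genes and a threshold of 0.05. The steps were tested on simulated data. Members and lists were chosen with earlier results of these data known. By rule every member was named, with per-array values for up to 3 of the largest calls per step and comparison, every member called for the difference of zinc effects and 6 pairs of related genes, and from other lists the gene with the smallest p, while PDR11, ROX1, MCR1, CYB2, CYC1 and the fall of ATF2 in WT yeast were given after their values were seen. The same holds for AAC3, ANB1, CYC7 and the values of STE2. The alternatives were quantile normalization, median centring, a filter on the dimmest 25% of genes, a slide block, a replicate block, robust moderation with an intensity trend, weights per array, fits of only the arrays compared, and omission of each array in turn. Replicate differences correlated at 0.0855 to 0.536 among WT control, WT zinc and AhPDF1.1b control, and at -0.533 to -0.298 between these and AhPDF1.1b zinc. Equal replicate numbers thus did not mark pairs alike in all groups, although the replicate block treats them so. Whether the replicates were paired in another way was not tested.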

Additional observations from a re-analysis of the deposited data

Results flagged for a closer look

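The test of the difference of zinc effects (zinc in AhPDF1.1b yeast minus zinc in WT yeast) set 24 sterol genes apart, and no explanation was tested. Of all genes, 17.7% were called above 0 and 16.0% below 0. Among the mevalonate genes the log2 values were 1.09 for ERG10, 0.64 for ERG13, 0.61 for MVD1, 1.13 for ERG20 and -0.74 for ERG8. In the early steps they were 0.52 for ERG9 and 0.72 for ERG1. In the late steps ERG11 gave 0.63, ERG24 0.75, ERG25 1.23, ERG26 0.60, ERG27 0.74, ERG28 0.87, ERG6 0.65, ERG2 0.54, ERG3 1.13, ERG4 0.71 and NCP1 0.60. The regulators UPC2 and SUT1 gave 0.62 and 0.38. Among the oxysterol-binding proteins the values were -0.31 for KES1, 0.94 for HES1, 0.59 for OSH6 and 0.88 for OSH7. The adjusted p in limma ran from 1.18e-05 for ERG25 to 0.0356 for ERG26. With slide as a block the calls of ERG11, ERG26, SUT1 and KES1 ended.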

How the results depend on the processing

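No called value of the 36 sterol genes or of the 34 other genes listed changed sign under any alternative run. For many alternatives it could not. The intensity trend, array weights, replicate block, fits of only the arrays compared and filter on dim genes leave the estimates unchanged. Nor can leaving out 1 array reverse 2 groups that do not overlap, as in the sterol calls between 2 groups. The constant sign is therefore no check in these cases. Of 120 calls of the 36 genes, slide as a block ended 19, a replicate block 2 (ERG24 for zinc plus AhPDF1.1b and KES1 for the difference of zinc effects), median centring 1 and an intensity trend with robust moderation 1, while quantile normalization, array weights, only the arrays compared (96 calls, without the difference of zinc effects) and leaving out the dimmest 25% of genes (113 calls) ended none. With the replicate block the numbers of sterol genes called were 28 for zinc in WT yeast, 18 for zinc in AhPDF1.1b yeast, 29 for AhPDF1.1b under zinc and 23 for the difference of zinc effects, against 28, 18, 29 and 24 without it. Leaving out 1 array ended 2 to 16 calls. The number called on control medium (1) was 0 to 1, being 0 where WT control replicate 1 or 2 or AhPDF1.1b control replicate 1 was left out. The other numbers of sterol genes called, both directions together, kept within 1.5 times. By direction, the 8 lower for zinc plus AhPDF1.1b were 5 without AhPDF1.1b zinc replicate 1, the 2 lower for AhPDF1.1b under zinc were 1 without WT zinc replicate 1, and the 2 below 0 for the difference of zinc effects were 1 with slide as a block, with a replicate block or without WT control replicate 1 or 2, WT zinc replicate 1, AhPDF1.1b control replicate 2 or AhPDF1.1b zinc replicate 1 or 2. Over all genes, slide as a block gave 1755 calls for AhPDF1.1b under zinc and 1258 for the difference of zinc effects, against 3037 and 2095 without it, and the calls on control medium (352) numbered 94 and 98 without WT control replicate 1 or 2, and 206 and 220 without AhPDF1.1b control replicate 1 or 2. The causes were not tested.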
